A study of Mus musculus with 8 samples.

Results

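The genes described here are 10 mouse genes of the antioxidant response and of metal binding, Hmox1, Nqo1, Gclc, Gclm, Srxn1, Txnrd1, Slc7a11, Gpx3, Mt1 and Mt2. They were chosen by name for their roles and not by a rule on measured values, but with earlier results of these data known. All 10 were among the 24980 genes of the table and among the 17582 genes with enough counts to be tested. The RNA-seq series held 8 libraries from cells of the muscle lineage in 4 groups, each with 2 biological replicates. TF and TE were progenitors from teratomas, the mixed-tissue tumors that implanted embryonic stem cells form, and SF and SE were satellite cells, which regenerate the fibers of adult muscle. TF and SF were freshly isolated, and TE and SE had been expanded in culture to passage 8.

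All teratoma-derived cells came from 1 embryonic stem cell line, E14-EGFP, implanted into irradiated and cardiotoxin-injured tibialis anterior muscle of NSG-mdx4Cv mice, which are immunodeficient and lack dystrophin. They were sorted as EGFP+ cells without the endothelial marker CD31 and the blood marker CD45 but with α7-integrin and VCAM-1. Beyond their being adult, the genotype, age and treatment of the animals that gave the satellite cells are not given in the sources used here. Origin (an embryonic stem cell line against adult muscle) and the surroundings from which cells were isolated therefore cannot be told apart in TF versus SF. The expanded cells were grown on gelatin-coated wells. Nothing in the labels says that replicates came from separate animals or cultures, so p-values measure the spread between these libraries.

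Many antioxidant genes are switched on together by the transcription factor NRF2 (gene Nfe2l2), which KEAP1 marks for degradation until oxidants or electrophiles modify KEAP1. NRF2 then pairs with a small MAF protein at antioxidant response elements, which BACH1 occupies as a repressor. Its targets supply glutathione (Slc7a11, Gclc, Gclm), drive the thioredoxin system (Txnrd1, Srxn1), reduce quinones (Nqo1) and break down heme (Hmox1). Metallothioneins (Mt1, Mt2) are small cysteine-rich proteins that bind zinc and copper, and the zinc-sensing factor MTF1 induces them through metal response elements. Gpx3 encodes a secreted glutathione peroxidase that contains selenocysteine.

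The bases just before the transcription start are shown for the genes whose windows held a match to an antioxidant or metal response element, because these are the elements through which the factors above are known to act. RefSeq (GRCm38.p6) gave 10 windows of 250 bases before a start for 8 of the 10 genes, all but Hmox1 and Gclc, with 3 windows for Txnrd1. Capitals mark matches, on either strand, to the antioxidant response element core TGACNNNGC, the metal response element core TGCACNC or TGCGCNC, and the AP-1 site TGACTCA.
Mt2 (chr8:94172368-94172617, plus strand): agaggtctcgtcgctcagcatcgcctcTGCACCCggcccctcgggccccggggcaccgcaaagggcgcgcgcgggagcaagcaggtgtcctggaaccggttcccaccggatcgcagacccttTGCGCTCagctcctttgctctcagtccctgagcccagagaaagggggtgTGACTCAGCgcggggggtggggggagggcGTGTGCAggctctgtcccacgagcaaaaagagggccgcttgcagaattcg
Mt1 (chr8:94178839-94179088, plus strand): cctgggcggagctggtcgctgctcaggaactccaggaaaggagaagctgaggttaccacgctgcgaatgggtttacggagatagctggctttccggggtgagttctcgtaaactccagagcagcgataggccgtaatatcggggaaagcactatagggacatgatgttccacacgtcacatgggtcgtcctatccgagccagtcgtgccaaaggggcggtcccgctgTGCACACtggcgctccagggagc
Gclm (chr3:122245307-122245556, plus strand): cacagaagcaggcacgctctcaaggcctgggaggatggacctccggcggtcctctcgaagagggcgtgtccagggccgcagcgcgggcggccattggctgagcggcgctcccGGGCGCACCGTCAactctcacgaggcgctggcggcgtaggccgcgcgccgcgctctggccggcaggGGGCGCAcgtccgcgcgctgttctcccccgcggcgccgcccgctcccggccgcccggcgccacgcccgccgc
Srxn1 (chr2:152105274-152105523, plus strand): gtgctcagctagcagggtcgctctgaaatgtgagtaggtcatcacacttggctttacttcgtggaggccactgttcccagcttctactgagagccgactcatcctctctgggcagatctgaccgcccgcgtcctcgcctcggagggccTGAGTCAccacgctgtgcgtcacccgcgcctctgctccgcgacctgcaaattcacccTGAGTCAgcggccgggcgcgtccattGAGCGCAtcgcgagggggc
Txnrd1, second start (chr10:82858956-82859205, plus strand): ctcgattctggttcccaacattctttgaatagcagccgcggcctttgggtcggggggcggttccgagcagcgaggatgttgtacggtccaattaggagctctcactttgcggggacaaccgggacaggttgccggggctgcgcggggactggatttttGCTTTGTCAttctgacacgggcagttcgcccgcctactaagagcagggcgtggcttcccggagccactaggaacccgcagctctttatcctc

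Distances are counted back from the start that RefSeq gives, which for Mt2 lies upstream of the GENCODE start printed below and was not found in GENCODE. The Mt2 window held 3 metal response cores, at 223 to 217, 128 to 122 and 50 to 44 bases before the start, and 1 antioxidant response core at 79 to 71 bases whose first 7 letters are also an AP-1 site. The Mt1 window held 1 metal response core, at 23 to 17 bases. GENCODE lists 3 transcripts of Mt1, and only the start that gave this window was searched. The Gclm window held 2 metal response cores and 1 antioxidant response core, and the core at 138 to 132 bases overlapped the antioxidant response core at 134 to 126 bases. The Srxn1 window held 2 AP-1 sites, at 102 to 96 and 45 to 39 bases, and 1 metal response core at 19 to 13 bases. The second start of Txnrd1 had an antioxidant response core at 92 to 84 bases. In all, 3 of the 10 windows held the antioxidant response core, against 10.2% of 32536 mouse windows of the same length, 4 held the metal response core (21.5% of all windows) and 2 held the AP-1 site (4.45%). A match is a string of letters and was not tested for binding. Elements outside these windows, or spelled with other letters than these cores, were not searched.

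The deposited estimated counts summed to between 11930961 and 21146632 per library, and the members had between 32 and 33289 counts in a library. Levels are given as normalized counts, the rounded counts divided by edgeR's TMM size factor. Myogenic markers (7 of 7 genes, among them Pax7, Myod1 and Itga7) were detected in every group. Markers of other cell types were present in fresh libraries: the summed level of 5 endothelial genes was 1073 to 3654 in TF and 4286 to 5504 in SF against 7.48 to 17.8 in TE and 22.0 to 35.5 in SE. That of 6 macrophage and blood genes was 6637 in TF1 and 548 in TF2, 452 to 467 in SF, 12.1 to 27.4 in TE and 46.8 to 105 in SE. Since TF1 stood apart on these genes, calls that change without it are given with each gene. In bulk RNA, a change in the number of cells of a type cannot be told apart from a change in RNA per cell.

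Freshly isolated satellite cells had the highest mean level of 7 of the 10 genes, Mt1, Mt2, Gpx3, Srxn1, Hmox1, Txnrd1 and Gclc, although for Txnrd1 and Gclc the difference from expanded satellite cells did not pass the test. After expansion the metallothioneins, Gpx3, Srxn1 and Hmox1 were lower in satellite cells by 7.86-fold or more, while Nqo1 was 17.2-fold and Slc7a11 3.86-fold higher. A gene was called, or passed, when edgeR's quasi-likelihood fit gave a p under 0.05 after Benjamini-Hochberg adjustment and the level of one group exceeded that of the other by more than 25%. In SE versus SF, 7 members were called, 2 higher and 5 lower, where 40.7% of all tested genes did (20.9% higher and 19.8% lower). Of all genes called, 51.4% were higher, against 40.9% with DESeq2. The median log2 fold change of the members was -1.72, and that of all genes -0.23. In TE versus TF, 7 members passed, 3 higher and 4 lower, where 26.1% of all tested genes did (9.86% higher and 16.2% lower), and the median was -0.29 beside -0.18 for all genes.

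**Figure D1:**
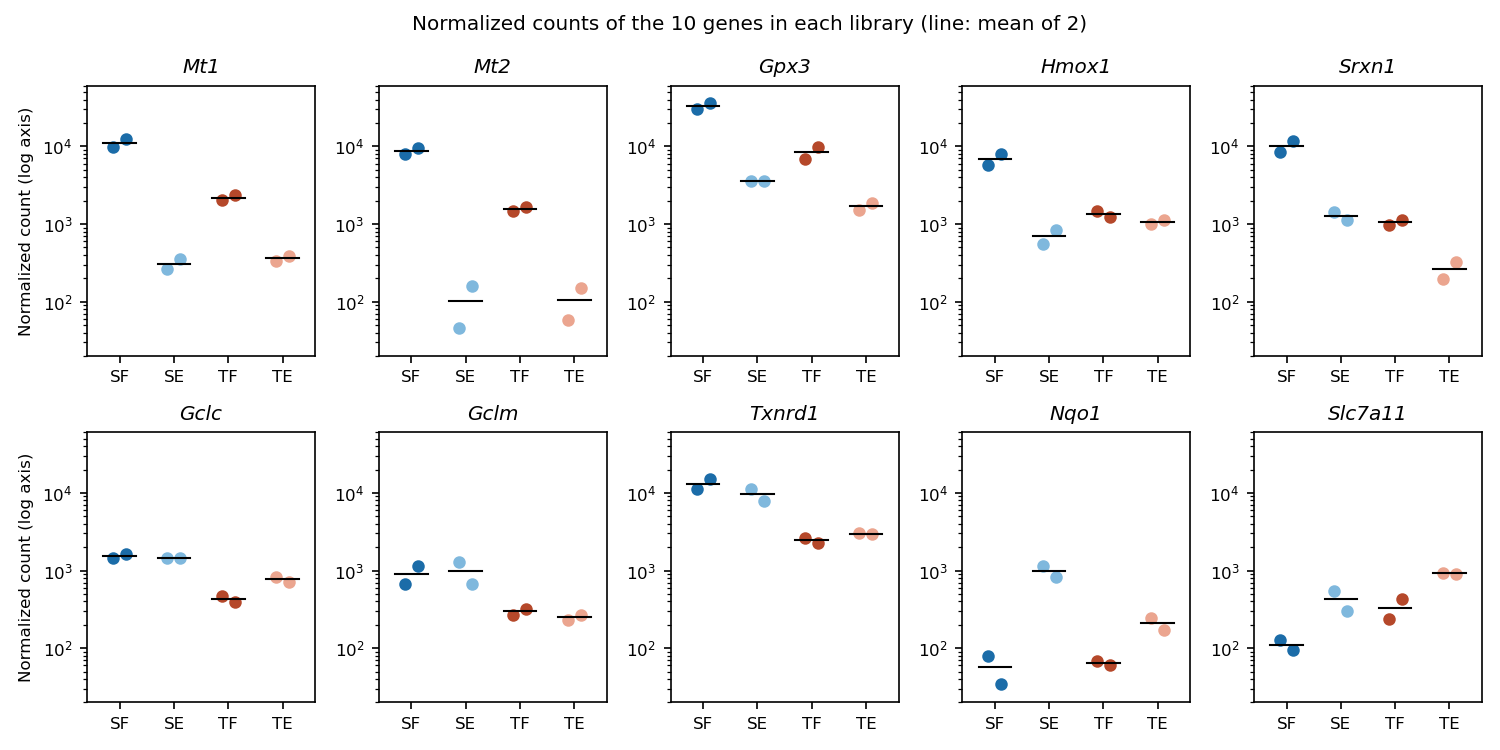
Normalized counts (log axis) of the 10 genes in the 8 libraries, with 1 point per library, grouped as SF, SE, TF and TE, and a line at each group mean. Mt1 and Mt2 are lowest in TE and SE, Nqo1 is highest in SE and Slc7a11 is highest in TE.

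Mt1 and Mt2, neighbors on chromosome 8 with starts 6418 bases apart, had the largest declines. Mt1 (chr8:94179082-94180327, 3 exons) stood at 2037 and 2334 normalized counts in TF, 333 and 393 in TE, 9938 and 12320 in SF and 263 and 355 in SE. Mt2 (chr8:94172664-94173568, 3 exons) stood at 1462 and 1650 in TF, 57.3 and 152 in TE, 8019 and 9451 in SF and 46.1 and 159 in SE. For both genes the SF libraries lay above all others, the TF libraries came next, and the TE and SE libraries overlapped at the bottom. Mt1 fell 36.0-fold in satellite cells (log2 fold change -5.17, SE 0.254, edgeR adjusted p = 1.86e-06) and 6.02-fold in teratoma-derived cells (-2.59, SE 0.227, edgeR adjusted p = 4.7e-05). Mt2 fell 85.9-fold in satellite cells (-6.42, SE 0.624, edgeR adjusted p = 5.24e-05) and 14.9-fold in teratoma-derived cells (-3.89, SE 0.561, edgeR adjusted p = 0.000865).

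The starting levels differed between origins and the expanded levels were not separated. In TF versus SF, Mt1 had a log2 fold change of -2.35 (SE 0.222, edgeR adjusted p = 0.00021) and Mt2 had a log2 fold change of -2.49 (SE 0.514, edgeR adjusted p = 0.00787). In TE versus SE the log2 fold change was 0.23 for Mt1 (95% interval -0.255 to 0.722, edgeR adjusted p = 0.635) and 0.04 for Mt2 (-1.16 to 1.24, edgeR adjusted p = 1). The interval for Mt2 leaves room for more than a 2-fold difference in either direction. The ratio of Mt2 to Mt1 counts also moved: it was 0.718 and 0.707 in TF, 0.807 and 0.767 in SF, 0.172 and 0.387 in TE and 0.175 and 0.448 in SE. All 4 fresh libraries thus had a higher share of Mt2 than all 4 expanded libraries. Per kilobase of the main transcript, the SF means were 20200 for Mt1 and 17100 for Mt2. The coding sequences of these genes are alike, so reads could have been split between them, although the deposited values of both were whole numbers in 8 of 8 libraries.

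Gpx3 (chr11:54902453-54910377, 5 exons), the secreted peroxidase, had a mean of 20700 normalized counts per kilobase in SF, close to that of Mt1. It stood at 6921 and 9874 normalized counts in TF, 1538 and 1882 in TE, 30120 and 35870 in SF and 3623 and 3577 in SE. No groups overlapped, and every step of the order SF, TF, SE, TE passed the test. Gpx3 fell 9.17-fold in satellite cells (log2 fold change -3.20, SE 0.248, edgeR adjusted p = 1.53e-05), and in teratoma-derived cells the log2 fold change was -2.30 (SE 0.239, edgeR adjusted p = 0.000129). It was lower in TF than in SF (-1.97, SE 0.236, edgeR adjusted p = 0.000551) and in TE than in SE (-1.07, SE 0.231, edgeR adjusted p = 0.0222). The difference in expanded cells missed the threshold without TE1 (edgeR adjusted p = 0.275) and without TE2 (0.119). TF exceeded SE by 1.22 on the log2 scale (edgeR adjusted p = 0.00445), a call lost without TF2 (0.0599).

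Hmox1 (chr8:75093621-75100589, 5 exons) encodes the inducible heme oxygenase, which cleaves heme into biliverdin, iron and carbon monoxide. Its level was 5770 and 8091 normalized counts in SF, against 1476 and 1219 in TF, 1006 and 1129 in TE and 548 and 845 in SE. Only the SF libraries stood well apart, and the TE and TF libraries were close. The fall with expansion was 9.96-fold in satellite cells (log2 fold change -3.32, SE 0.275, edgeR adjusted p = 2.22e-05), whereas TE versus TF gave -0.34 (95% interval -0.903 to 0.233, edgeR adjusted p = 0.354). The difference between these changes was itself tested and was 2.98 on the log2 scale (SE 0.365, edgeR adjusted p = 0.00102). TF was lower than SF (-2.36, SE 0.265, edgeR adjusted p = 0.000402), and TE versus SE gave 0.62 (edgeR adjusted p = 0.211), which passed only without SE2 (0.96, edgeR adjusted p = 0.0335). TF was higher than SE by 0.95 (edgeR adjusted p = 0.024), a call lost without TF1 (0.141), without SE1 (0.116) and with only the groups compared in the fit (0.0533).

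Srxn1 (chr2:152105516-152111376, 2 exons) encodes sulfiredoxin, which restores overoxidized peroxiredoxins. It stood at 8380 and 11670 normalized counts in SF, 1414 and 1136 in SE, 964 and 1141 in TF and 195 and 326 in TE. SF was highest and TE lowest with no overlap, while the SE and TF libraries overlapped. Srxn1 fell 7.86-fold in satellite cells (log2 fold change -2.97, SE 0.289, edgeR adjusted p = 5.21e-05) and by 2.02 on the log2 scale in teratoma-derived cells (SE 0.284, edgeR adjusted p = 0.000762). Teratoma-derived cells were lower than satellite cells in both states, with -3.25 fresh (SE 0.293, edgeR adjusted p = 0.000167) and -2.29 expanded (SE 0.286, edgeR adjusted p = 0.0016).

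**Figure D2:**
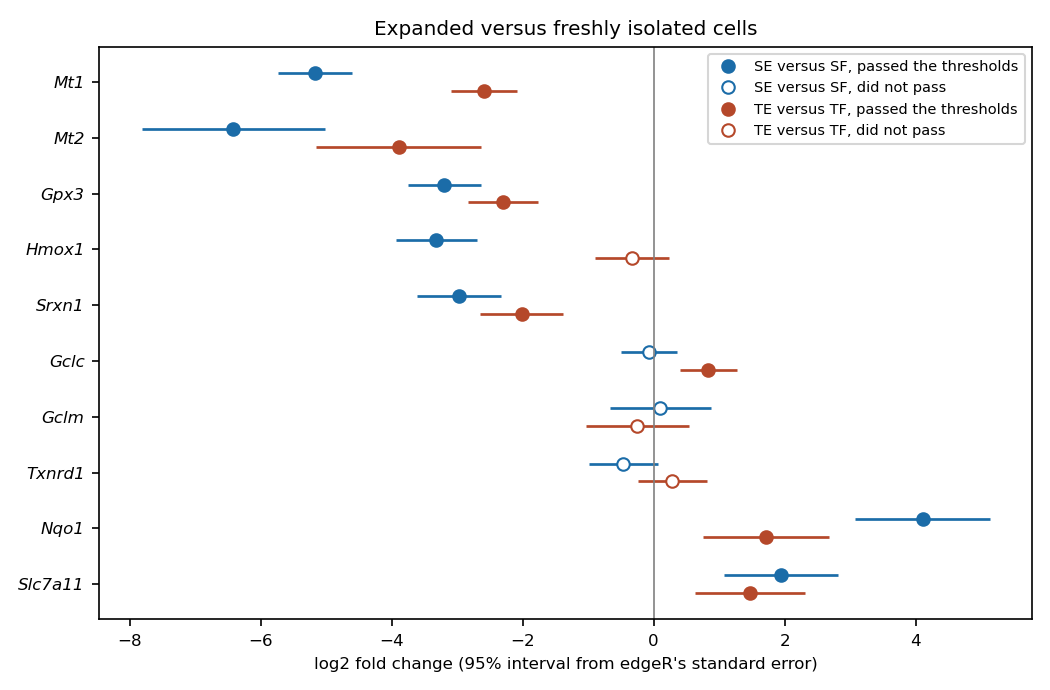
Log2 fold change with expansion for each gene, SE versus SF and TE versus TF, with 95% intervals from edgeR's standard error and filled points for calls. Mt1, Mt2, Gpx3 and Srxn1 lie below 0 and Nqo1 and Slc7a11 above 0 in both comparisons, and Hmox1 is at -3.32 in satellite cells and -0.34 in teratoma-derived cells.

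The remaining thioredoxin gene and the glutathione synthesis genes were higher in satellite cells, fresh and expanded. Txnrd1 (chr10:82833951-82897712, 14 exons) encodes the cytosolic thioredoxin reductase, a selenoprotein that keeps thioredoxin reduced. It stood at 11110 and 15210 normalized counts in SF, 11270 and 7857 in SE, 3022 and 2953 in TE and 2663 and 2231 in TF. All 4 satellite libraries were above all 4 teratoma-derived libraries. The log2 fold change was -2.43 in TF versus SF (SE 0.25, edgeR adjusted p = 0.000277) and -1.68 in TE versus SE (SE 0.243, edgeR adjusted p = 0.00337). With expansion it was -0.46 in satellite cells (95% interval -0.992 to 0.0712, edgeR adjusted p = 0.144) and 0.29 in teratoma-derived cells (-0.246 to 0.821, edgeR adjusted p = 0.399). The decline in satellite cells passed under median-ratio scaling (-0.65, edgeR adjusted p = 0.0492), with DESeq2 (adjusted p = 0.0132) and without SE1 (-0.73, edgeR adjusted p = 0.0487).

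Gclc and Gclm encode the catalytic and the modifier subunit of glutamate-cysteine ligase, the rate-limiting enzyme of glutathione synthesis. Gclc (chr9:77754535-77794485, 16 exons) stood at 1429 and 1622 normalized counts in SF, 1450 and 1466 in SE, 833 and 711 in TE and 470 and 395 in TF. SF and SE overlapped at the top, and the log2 fold change between them was -0.06 (95% interval -0.494 to 0.364, edgeR adjusted p = 0.801). TE lay between them and TF, higher than TF (0.84, SE 0.196, edgeR adjusted p = 0.0118) and lower than SE (-0.92, SE 0.193, edgeR adjusted p = 0.0202). Without TE1 these gave edgeR adjusted p-values of 0.123 and 0.118, without TF2 the first gave 0.11, and without TE2 the second gave 0.267. The second also gave 0.0501 when tested against the fold threshold (edgeR's glmTreat). TF was lower than SF (log2 fold change -1.82, SE 0.2, edgeR adjusted p = 0.000378).

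Gclm (chr3:122245557-122270732, 7 exons) stood at 676 and 1139 normalized counts in SF, 1274 and 676 in SE, 271 and 323 in TF and 229 and 271 in TE. Both satellite groups were wide and overlapped, and all 4 of their libraries were above all 4 teratoma-derived ones. The log2 fold change was -1.61 in TF versus SF (SE 0.356, edgeR adjusted p = 0.0106) and -1.96 in TE versus SE (SE 0.357, edgeR adjusted p = 0.0103). The first missed the threshold without TF1 (edgeR adjusted p = 0.0505) or SF2 (0.0514), and the second without TE1 (0.0585). With expansion it was 0.10 in satellite cells (95% interval -0.665 to 0.872) and -0.25 in teratoma-derived cells (-1.04 to 0.541), neither of which passed. The ratio of Gclm to Gclc counts ranged from 0.275 to 0.381 in TE and from 0.461 to 0.879 in the other 6 libraries.

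Nqo1 (chr8:107388225-107403206, 6 exons, minus strand) encodes a quinone reductase and is a standard readout of NRF2. It was low in fresh cells, at 67.3 and 60.0 normalized counts in TF and 80.3 and 34.5 in SF, and stood at 247 and 170 in TE and 1153 and 824 in SE. The fresh groups overlapped, TE was above them and SE above TE. It rose 17.2-fold in satellite cells (log2 fold change 4.11, SE 0.458, edgeR adjusted p = 0.000115) and 3.27-fold in teratoma-derived cells (1.71, SE 0.427, edgeR adjusted p = 0.016). The difference between the changes was -2.40 (SE 0.597, edgeR adjusted p = 0.0264). TE was lower than SE (-2.25, SE 0.415, edgeR adjusted p = 0.0112), and TF versus SF gave 0.15 (95% interval -0.823 to 1.13, edgeR adjusted p = 0.841). Without TE2, TE versus SE and the difference between changes gave edgeR adjusted p-values of 0.0701 and 0.0776. The difference also missed the threshold without SE1 (0.058), and the rise in teratoma-derived cells without TF2 (0.0567) or TE1 (0.076).

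Slc7a11 (chr3:49892526-50443614, 12 exons, minus strand) encodes the cystine importer that supplies cysteine for glutathione. It stood at 935 and 914 normalized counts in TE, 551 and 305 in SE, 237 and 429 in TF and 128 and 93.8 in SF. TE was highest and SF lowest, with SE and TF overlapping between them. It rose 3.86-fold in satellite cells (log2 fold change 1.95, SE 0.387, edgeR adjusted p = 0.0032) and 2.77-fold in teratoma-derived cells (1.47, SE 0.374, edgeR adjusted p = 0.0173). TF exceeded SF (1.59, SE 0.386, edgeR adjusted p = 0.016), and TE versus SE gave 1.11 (95% interval 0.284 to 1.94, edgeR adjusted p = 0.117). The rise in teratoma-derived cells missed the threshold without TF1 (edgeR adjusted p = 0.0927), TE1 (0.056) or TE2 (0.0509), and TF versus SF without TF2 (0.104) or SF2 (0.0635) and with only the groups compared (0.0625). TE versus SE passed without SE1 (1.61, edgeR adjusted p = 0.0277) and with no filter on low counts (edgeR adjusted p = 0.01). The deposited values of Slc7a11 were whole in 0 of 8 libraries, so some of its reads had been shared with another transcript. Among the other members, values were whole in 5 of 8 libraries for Txnrd1, in 6 of 8 for Gpx3 and in 8 of 8 for the rest.

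Between origins, the members were mostly lower in teratoma-derived cells. In TF versus SF, 1 member was higher and 8 were lower, where 24.2% of all tested genes passed (15.1% higher and 9.13% lower), and the median log2 fold change was -2.16 beside 0.0799 for all genes. Of all genes called in it, 62.3% were higher, against 52.1% under median-ratio scaling and 48.7% with DESeq2. In TE versus SE, 6 were lower with edgeR (Nqo1, Gclc, Gclm, Srxn1, Txnrd1 and Gpx3) and 0 were higher, where 7.21% passed (3.15% higher and 4.07% lower), and the median was -0.996 beside -0.0034 for all genes. Fewer of the 6 passed without TE1 and without TE2, and so did fewer of all tested genes. In these fits the log2 fold changes of the 6 stayed below 0, from -2.71 to -0.803. Hmox1 and Slc7a11 had positive log2 fold changes in TE versus SE with an unadjusted edgeR p below 0.05, which is not a call. By the thresholds for a call, 0 members were higher with edgeR and 0 with DESeq2.

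**Figure D3:**
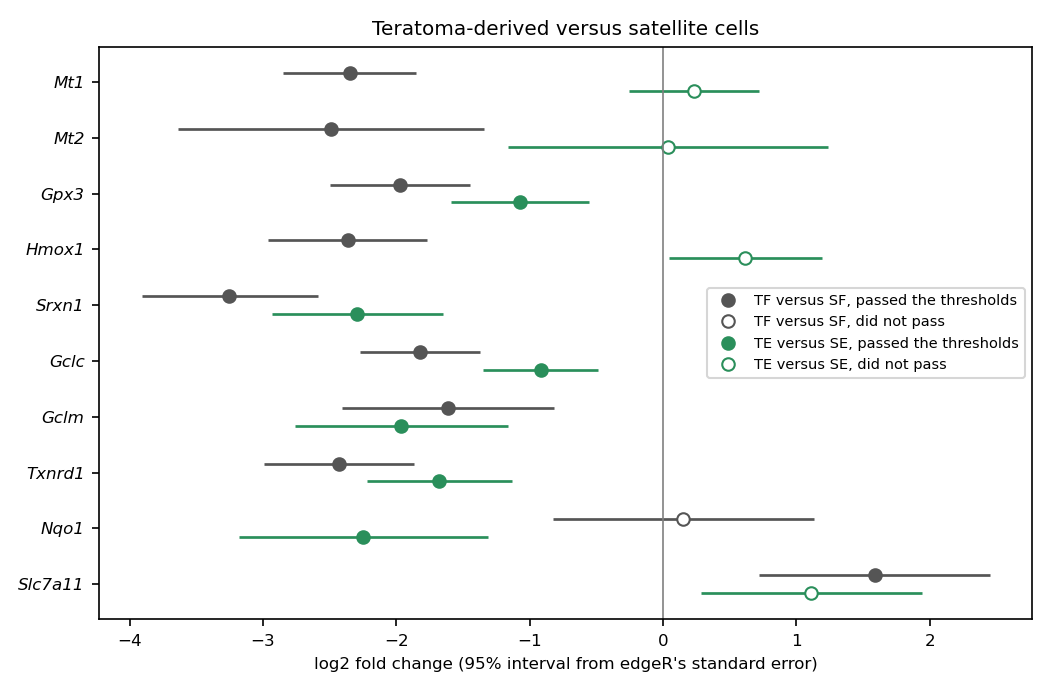
Log2 fold change between origins for each gene, TF versus SF and TE versus SE, with 95% intervals from edgeR's standard error and filled points for calls. Srxn1, Gclm, Txnrd1, Gclc and Gpx3 lie below 0 in both comparisons, and Slc7a11 lies above 0 in both.

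TF versus SE compares the fresh teratoma-derived cells with the expanded satellite cells and shares its libraries with the comparisons above. In it 4 members were higher (Mt1, Mt2, Gpx3 and Hmox1) and 4 lower (Nqo1, Gclc, Gclm and Txnrd1), where 23.6% of all tested genes passed (14.5% higher and 9.16% lower). The median of the members was -0.32 beside 0.10 for all genes. The change with expansion differed between origins for 4 members, where 14.3% of all tested genes passed (4.7% higher and 9.62% lower). It was less negative in teratoma-derived cells for Hmox1, Mt1 (2.58, SE 0.308, edgeR adjusted p = 0.000887) and Mt2 (2.53, SE 0.734, edgeR adjusted p = 0.048), and smaller for Nqo1. The difference for Mt2 missed the threshold without TF1 (edgeR adjusted p = 0.0762), TF2 (0.0629), TE2 (0.163), SF1 (0.0727) or SF2 (0.0661), and when tested against the fold threshold (glmTreat, 0.0573). For Gclc, Gpx3, Srxn1 and Txnrd1 the difference was 0.75 to 0.96 and did not pass in the edgeR fit with TMM (adjusted p from 0.0558 to 0.176). All 4 passed with DESeq2, and in other edgeR fits Gclc passed under median-ratio scaling (1.04, edgeR adjusted p = 0.0294) and without Rn45s (1.03, edgeR adjusted p = 0.0345), and Srxn1 passed with no filter on low counts (0.95, edgeR adjusted p = 0.0349).

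The genes that control NRF2 moved in both directions. Nfe2l2, the gene of NRF2 itself, stood at 1384 and 1133 normalized counts in TF, 1358 and 1380 in TE, 2225 and 2925 in SF and 2117 and 1861 in SE. Its satellite libraries were thus all above its teratoma-derived ones, and TF was lower than SF (log2 fold change -1.03, edgeR adjusted p = 0.00624). The small MAF genes Maff and Mafk were highest in SF and next in TF, whereas Mafg stood at 400 and 387 normalized counts in TF, 883 and 999 in TE, 825 and 1039 in SF and 747 and 756 in SE. Mafg rose in TE versus TF (log2 fold change 1.26, edgeR adjusted p = 0.00206), and in SE versus SF it gave -0.31 (edgeR adjusted p = 0.242). Maff stood at 2037 and 1723 in TF, 68.6 and 119 in TE, 6631 and 9146 in SF and 221 and 239 in SE, with log2 fold changes of -5.10 in SE versus SF (edgeR adjusted p = 4.64e-06) and -4.33 in TE versus TF (edgeR adjusted p = 1.33e-05). The repressor gene Bach1 fell in both (-1.95, edgeR adjusted p = 4.55e-05, and -1.62, edgeR adjusted p = 0.000221). Over the list of 10 control genes, 3 rose and 4 fell in each expansion comparison, where 20.9% of all tested genes rose and 19.8% fell in SE versus SF and 9.86% rose and 16.2% fell in TE versus TF.

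Other antioxidant genes are given by lists of role, 95 genes in 8 lists, of which 94 were tested. With expansion of satellite cells 36 rose and 15 fell, where 20.9% of all tested genes rose and 19.8% fell. With expansion of teratoma-derived cells 16 rose and 22 fell, where 9.86% of all tested genes rose and 16.2% fell. In the glutathione list, 6 of 14 genes rose and 1 fell in SE versus SF (median 1.18, all genes -0.23). Among those that rose were Gsr, the glutathione reductase (2.33, edgeR adjusted p = 0.000961), and Gpx1, the cytosolic peroxidase (1.97, edgeR adjusted p = 0.00261). The 1 that fell was Cbs (-5.57, edgeR adjusted p = 0.00651). In the thioredoxin and peroxiredoxin list 7 of 14 rose and 1 fell. Prdx5 rose by 2.23 (edgeR adjusted p = 0.000709) and Prdx2 by 2.03 (edgeR adjusted p = 5e-05), and Txnip fell (-1.13, edgeR adjusted p = 0.0121). In the list of NADPH supply and detoxification 10 of 20 rose and 3 fell. Me1, the cytosolic malic enzyme that makes NADPH, rose by 3.06 (edgeR adjusted p = 2.21e-05). The 3 that fell included Osgin1 (-2.72, edgeR adjusted p = 1.85e-05) and Gstm1 (-1.41, edgeR adjusted p = 0.000525).

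In TE versus TF, where 9.86% of all tested genes were higher and 16.2% lower, the same lists stood at 4 higher and 3 lower of 14 for glutathione, 3 and 2 of 14 for thioredoxin and 4 and 5 of 20 for NADPH and detoxification. Within the lists the largest rises were those of Cth, which makes cysteine from cystathionine (6.78, edgeR adjusted p = 0.000724), and Chac1, which degrades glutathione (4.52, edgeR adjusted p = 5.64e-05). The largest fall in the glutathione list was that of Cbs (-6.79, edgeR adjusted p = 0.00935). It stood at 60.6 and 57.5 normalized counts in TF and at 0 and 0.83 in TE. Cth stood at 1216 and 1271 normalized counts in TE and between 2.33 and 93.6 in the other 6 libraries. Chac1 stood at 1349 and 1620 in TE and between 55.2 and 284.7 elsewhere. Both were also higher in TE than in SE (4.02, edgeR adjusted p = 0.0143, and 2.75, edgeR adjusted p = 0.00219), and TE was the group in which Slc7a11 was highest.

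In the list of zinc genes, 1 of 8 rose and 1 fell in SE versus SF, where 20.9% of all tested genes rose and 19.8% fell. In TE versus TF 0 of 8 rose and 3 fell, where 9.86% of all tested genes rose and 16.2% fell. The metallothionein Mt3 was detected at 41.7 and 101 normalized counts in TF and at 0 in both TE and both SF libraries, at least 29.0-fold lower in TE against a limit of 3 counts per library. Mt4 had 0 counts in all 8 libraries. Slc39a14, a zinc and iron importer, was high in SF alone (8232 and 8492) and stood between 441 and 1097 in the other 6 libraries. Selenop, the plasma selenium carrier, fell in both expansion comparisons (-4.36, edgeR adjusted p = 0.000297, and -4.44, edgeR adjusted p = 0.000468). So did Sod3, the extracellular superoxide dismutase (-6.28, edgeR adjusted p = 0.000352, and -8.01, edgeR adjusted p = 0.000193).

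**Figure D4:**
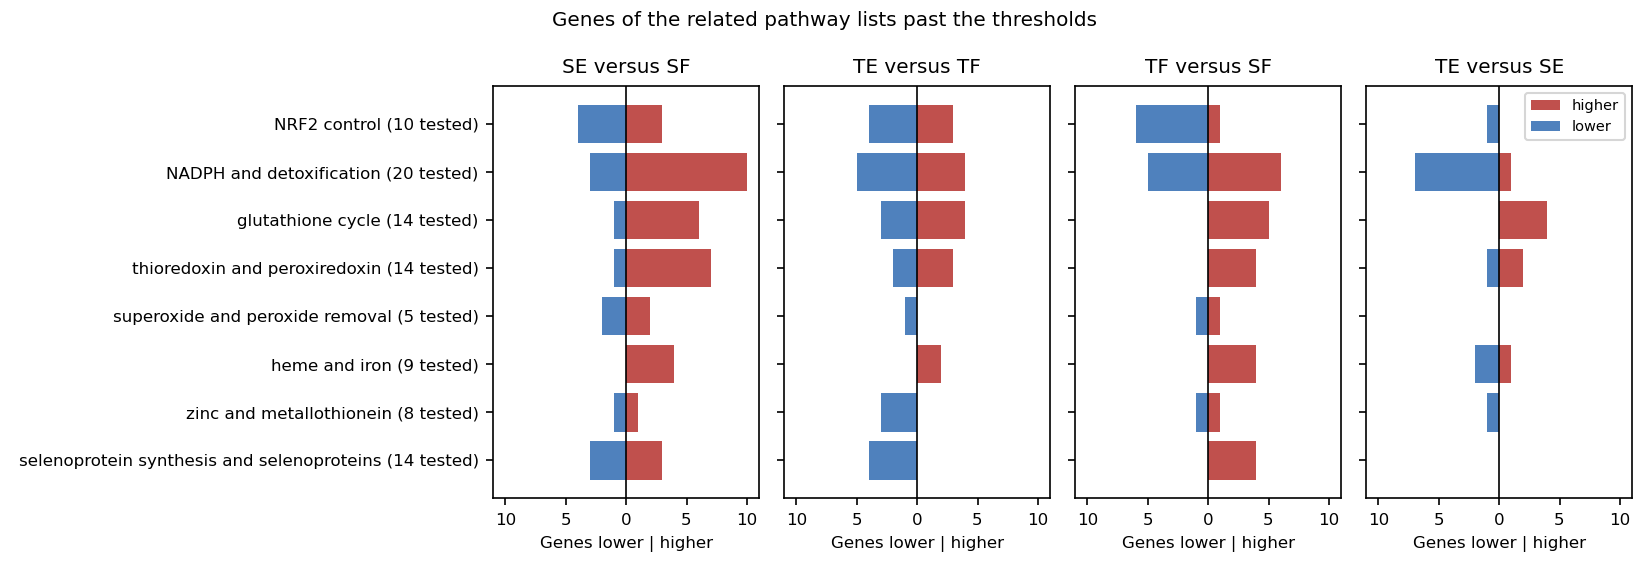
Numbers of genes higher (right of 0) and lower (left of 0) in each of the 8 lists of role, with 1 panel each for SE versus SF, TE versus TF, TF versus SF and TE versus SE. In SE versus SF the NADPH and detoxification list holds 10 higher and 3 lower of 20 genes, and in TE versus TF 4 higher and 5 lower.

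Other transcripts moved with the fresh state. The summed level of 8 immediate early and stress genes that respond to tissue dissociation (Fos, Fosb, Jun, Junb, Atf3, Egr1, Ier2 and Socs3) was 186600 to 199000 in TF and 181900 to 211100 in SF, against 8593 to 8720 in TE and 8198 to 8964 in SE, and 8 of 8 fell in each expansion comparison. TF and SF overlapped on this sum, while Mt1, Mt2, Gpx3, Srxn1 and Hmox1 were higher in SF. Endothelial genes fell in both comparisons (5 of 5), with Kdr and Emcn at 0 in TE and Cdh5, Kdr and Emcn at 0 in SE. Of the 6 fibro-adipogenic genes, 5 fell in SE versus SF and 6 in TE versus TF, with Lum at 0 in SE. Their sums were 302700 to 303000 in TF, 35240 to 62220 in SF, 9592 to 10750 in TE and 12760 to 14790 in SE. Col3a1 made up most of each sum, with means of 278000 in TF, 31100 in SF, 10100 in TE and 13700 in SE. Mean levels of Dcn were 13400 in TF, 12100 in SF, 41.1 in TE and 7.78 in SE. Those of Pdgfra were 4400 in TF, 1660 in SF, 6.51 in TE and 32.6 in SE. Ly6a was the gene that did not pass in SE versus SF. Of the 6 macrophage and blood genes, 3 fell in SE versus SF and 6 in TE versus TF, with Ptprc and Adgre1 at 0 in both expanded groups. Of the 5 pericyte and smooth muscle genes, 4 fell in SE versus SF and 5 in TE versus TF, with sums of 25190 to 26740 in SF, 15780 to 18650 in TF, 3895 to 3939 in TE and 4102 to 4116 in SE, and Kcnj8 at 0 in both expanded groups. Notch3 was the largest part of these pericyte and smooth muscle sums, with means of 14700 in SF, 11700 in TF, 3440 in TE and 2630 in SE. The endothelial sum, Mt1, Mt2, Gpx3 and Hmox1 likewise had SF above TF and both above the expanded groups. For Hmox1, TE versus TF did not pass. Of the 5 red blood cell genes, 5 fell in SE versus SF and 2 in TE versus TF, with sums of 1693 to 2714 in SF, 2784 in TF1, 65.1 in TF2, 7.27 to 15.8 in TE and 9.15 to 12.1 in SE. The part of these cells and of isolation in the fresh levels of the members was not tested.

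Differentiated muscle genes moved with expansion as well. The sum of 5 such genes (Myog, Ckm, Acta1, Mymk and Tnnt3) was 1199 to 1479 in SF, 5031 to 8699 in TF, 38240 to 39540 in TE, and 29800 in SE1 and 82730 in SE2. The SE libraries thus differed on these genes. Among the members Txnrd1, Gclm, Slc7a11, Nqo1 and Srxn1 were higher in SE1, and Hmox1, Mt1 and Mt2 in SE2. Gclc (1450 in SE1 and 1466 in SE2) and Gpx3 (3623 and 3577) were close. With 2 libraries, any gene that differs is higher in 1 of them. The part of differentiation in the levels of the members was not tested.

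Across the 8 libraries the members fell into like patterns on the log2 scale, given here as a description because the libraries share their groups. Pearson's r was 0.986 for Mt1 with Mt2, 0.954 for Gpx3 with Mt1, 0.945 for Srxn1 with Gpx3 and 0.929 for Hmox1 with Mt1. It was 0.94 for Gclm with Txnrd1 and 0.935 for Gclc with Txnrd1. Slc7a11 ran the other way, at -0.931 with Srxn1 and -0.93 with Gpx3. Among 12679 genes whose mean over the libraries reached 50 normalized counts, those most like Mt1 were Sbno2 (0.998) and Ccnl1 (0.996), those most like Gpx3 were Cadm4 (0.998) and Fgfr1 (0.989), and those most like Txnrd1 were Cep295nl (0.979) and Nfe2l2 (0.975). Nqo1 was most like Dynap (0.994) and Steap2 (0.992), and Slc7a11 most like Nup205 (0.991) and Fip1l1 (0.99).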

How the data were processed

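The processed data were 1 table of 8 libraries. The authors deposited estimated counts per gene symbol, not normalized. The submitters' processing notes name CASAVA, kallisto 0.44.0 and the builds GRCm38 and mm10. Reads shared between similar transcripts can be split by such estimates, so close paralogs (Mt1 and Mt2, Ftl1, the peroxiredoxins) are uncertain. The library kit for total RNA kept the strand. Rows without a gene name numbered 0, and 0 columns were left unused. The values (74.4% to 84.4% whole in a library) were rounded to whole numbers. The ribosomal precursor Rn45s took 7.99% to 21.3% of counts.

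Groups came from the sample labels. Replicates differed by more than sampling noise (chi-square per degree of freedom 12.1 to 93), so all libraries were kept. Genes passing edgeR's filterByExpr were normalized by TMM and compared by quasi-likelihood in edgeR, with all 4 groups in 1 model and no replicate term. P-values were adjusted over all 17582 genes by Benjamini-Hochberg. The difference between expansion changes is TE versus TF minus SE versus SF. SE beside a log2 fold change is the fold change divided by the root of F. With 2 libraries per group and a common dispersion of 0.233, small differences can be missed. Limits of 3 counts per library cover counting error only. The procedure was tested on simulated data.

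The genes named are the 10 members, up to 3 called genes of each list by size of change in each comparison, and the 2 most correlated genes of a member. Nfe2l2 and Mt4, outside this rule in part, and the marker genes were named with their values seen. The members and lists were chosen with earlier results of these data known. Gene positions and lengths are from GENCODE M21 (GRCm38). Alternatives were median-ratio size factors, DESeq2, no filter, only the groups compared, a test against the fold threshold (glmTreat), Rn45s left out, a replicate block and each library left out. Versions were R 4.3.3, edgeR 4.0.16 and DESeq2 1.42.0.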

Additional observations from a re-analysis of the deposited data

Results flagged for a closer look

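By a test of the difference itself, the change with expansion differed between teratoma-derived and satellite cells for 4 of the 10 genes. Of all tested genes, 14.3% passed the same thresholds. Hmox1 gave a difference of 2.98 on the log2 scale (edgeR adjusted p = 0.00102): it fell in satellite cells and had an interval that included 0 in teratoma-derived cells. Mt1 gave 2.58 (edgeR adjusted p = 0.000887) and Mt2 gave 2.53 (edgeR adjusted p = 0.048), both having fallen in both origins but by more in satellite cells, from a higher fresh level to expanded levels that overlapped. The call for Mt2 was lost in 5 of 8 fits with 1 library left out and when tested against the fold threshold (edgeR adjusted p from 0.0573 to 0.163). Nqo1 gave -2.40 (edgeR adjusted p = 0.0264), having risen in both origins but by more in satellite cells, and this call was lost without TE2 (0.0776) and without SE1 (0.058). With 2 libraries in each group, no outlier test was possible within a group.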

How the results depend on the processing

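Of 690 alternative values for the members, 630 kept their direction and their side of the threshold, 31 lost a call, 13 gained one and 16 changed sign, none of the last on a called value. With DESeq2, calls over all genes for the difference between expansion changes rose from 2517 to 3519. The member count for this difference rose from 4 to 8 with DESeq2, and the cause was not tested. With each library left out it was 2 to 4, and the counts were 7 to 8 in SE versus SF, 4 to 6 in TE versus TF, 3 to 7 in TE versus SE, 7 to 9 in TF versus SF and 7 to 8 in TF versus SE. These fits leave 1 group with a single library, assumed to vary like the others.

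Signs changed for Gclm in SE versus SF under median-ratio scaling (-0.0802), DESeq2 (-0.0803) and without Rn45s (-0.0391), and for Nqo1 in TF versus SF under median-ratio scaling (-0.0141) and DESeq2 (-0.0151). With 1 library left out, values that took both signs were, in SE versus SF, Gclm (-0.411 to 0.549) and Gclc (-0.153 to 0.0493), in TE versus SE Mt2 (-0.822 to 1.18), in TF versus SF Nqo1 (-0.318 to 0.864), in TF versus SE Slc7a11 (-0.879 to 0.11), and in the difference between expansion changes Slc7a11 (-0.851 to 0.0241) and Gclm (-0.792 to 0.191). Median-ratio scaling shifted all log2 fold changes by -0.192 in SE versus SF, by -0.16 in TF versus SF and by 0.137 in the difference, and by less than 0.1 elsewhere.

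Over all genes, TE versus SE gave 1268 calls, against 2163 with DESeq2, 2260 without a filter, 666 without TE1 and 653 without TE2. TE versus TF gave 4581, against 2759 without TE1 and 2739 without TE2. TF versus SF gave 4261, against 2639 without TF1 and 2671 without TF2. The difference gave 2517, against 1473 without TE1 and 1467 without TE2, and 43.9% of its calls were higher with DESeq2 and 42.1% under median-ratio scaling, against 32.8%. In TF versus SF 51% of calls were higher with only those groups fitted.

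Libraries with the same replicate number did not deviate together (correlations of -0.026 to 0.0752 over 17582 genes), so the numbers were not taken as pairs. A replicate block left the member counts at 7 in SE versus SF, 7 in TE versus TF, 6 in TE versus SE, 9 in TF versus SF, 8 in TF versus SE and 4 for the difference, and changed 0 member calls of 60.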

Other observations

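Selenium, iron and glutathione genes of the role lists that are not described above also changed. Selenom, an endoplasmic reticulum selenoprotein, fell in TE versus TF (log2 fold change -2.17, edgeR adjusted p = 0.00041), from 765 and 862 normalized counts in TF to 192 and 170 in TE. Tfrc, the transferrin receptor, rose in SE versus SF (2.35, edgeR adjusted p = 2.86e-05) and less in TE versus TF (0.73, edgeR adjusted p = 0.0229), and the difference between these changes was -1.63 (edgeR adjusted p = 0.00497). Slc40a1, the iron exporter ferroportin, was higher in teratoma-derived than in satellite cells both fresh (2.81, edgeR adjusted p = 0.00165) and expanded (3.30, edgeR adjusted p = 0.00195), at 385 to 685 normalized counts in TF and TE and 25.7 to 85.1 in SF and SE.

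Gsta4, a glutathione transferase for lipid aldehydes, fell in TE versus TF (-1.89, edgeR adjusted p = 0.00385), and the difference in its change with expansion was -4.29 (edgeR adjusted p = 0.000832). It stood at 603 and 318 normalized counts in TF, 116 and 132 in TE, 133 and 128 in SF and 771 and 611 in SE. Keap1 stood at 615 and 641 in TF, 417 and 337 in TE, 154 and 228 in SF and 766 and 599 in SE, and the difference in its change was -2.57 (edgeR adjusted p = 0.00309).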
